A study of Mus musculus and Homo sapiens with 41 samples.

Results

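Inhibitory adaptors and enzymes of tyrosine kinase signalling were followed as a group of 7 genes, Dok1, Dok2, Dok3, Matk, Csk, Inpp5d and Ptpn6, out of 53896 gene symbols listed in the expression tables of the series. All 7 were listed in both tables, matched by symbol. The members were chosen by the measured difference of Dok3 and Matk between Zbtb16 lu/lu and WT granulocyte-monocyte progenitors (GMPs), together with relatives and partners of these genes. Their values in that comparison are therefore given as a description and without a test, for all 7.

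The series asks how PLZF, the zinc finger transcription factor encoded by Zbtb16, acts in myeloid progenitors. GMPs, gated as c-Kit+ cells without lineage markers or Sca-1 that carry Cd34 and FcγR, were sorted from the bone marrow of lethally irradiated C57BL/6 Cd45-1 mice, 16 weeks after transplantation of C57BL/6 Cd45-2 marrow that was either WT or homozygous for the luxoid mutation of Zbtb16 (Zbtb16 lu/lu), and 2 RNA-seq libraries per genotype were analysed. Donor ages and the number of animals behind a library are not given in the sources used here. 416b cells, a Cd34+ mouse myeloid progenitor line, received a lentivirus carrying PLZF-Flag and GFP or the matching Empty vector, and the GFP+ cells were sorted after 48 h, with 1 library per condition. ChIP-seq and ATAC-seq were not analysed here. The luxoid mutation is carried by every cell of the donor marrow, and the transplantation was common to both genotypes.

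Myeloid cells are switched on by kinases of the Src family, such as Lyn and Fgr, which phosphorylate receptors and adaptors. Csk and its relative Matk (also called CHK) restrain these kinases by phosphorylating a tyrosine in their tail. The Dok proteins are docking adaptors, phosphorylated by the same kinases, of which Dok1 and Dok2 recruit the Ras GTPase activating protein and Dok3 recruits Grb2 and the lipid phosphatase SHIP1. SHIP1, encoded by Inpp5d, removes a phosphate from the product of PI3-kinase, and SHP-1, encoded by Ptpn6, removes phosphate from tyrosines once it is docked on receptors with an inhibitory motif (ITIM). Mice without SHIP1 or SHP-1, or without Dok1 and Dok2 together, are known for myeloid expansion.

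Sequences around annotated starts of Dok3 and Matk are shown because both genes were higher in Zbtb16 lu/lu GMPs. RefSeq promoter windows of 300 bases around an annotated start were found for 5 of the 7 members, with 2 starts each for Matk and Csk, while Dok1 and Dok2 had no entry. They are written 5′ to 3′ on the strand of the gene. Capitals mark GAGGAA or its reverse complement TTCCTC, a form of the GGAA core recognised by ETS factors such as PU.1. GGAA in other surroundings, which the windows of Dok3 and of the second Matk start also hold, was not marked or counted.
Dok3, GRCm38.p6 chr13:55528489-55528788, minus strand: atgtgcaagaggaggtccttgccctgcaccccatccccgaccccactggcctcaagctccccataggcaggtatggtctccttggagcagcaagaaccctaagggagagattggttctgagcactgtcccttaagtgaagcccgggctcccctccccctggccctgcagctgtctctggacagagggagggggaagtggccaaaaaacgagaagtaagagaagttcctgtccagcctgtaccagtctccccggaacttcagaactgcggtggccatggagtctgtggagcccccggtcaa
Matk, first start, GRCm38.p6 chr10:81252685-81252984, plus strand: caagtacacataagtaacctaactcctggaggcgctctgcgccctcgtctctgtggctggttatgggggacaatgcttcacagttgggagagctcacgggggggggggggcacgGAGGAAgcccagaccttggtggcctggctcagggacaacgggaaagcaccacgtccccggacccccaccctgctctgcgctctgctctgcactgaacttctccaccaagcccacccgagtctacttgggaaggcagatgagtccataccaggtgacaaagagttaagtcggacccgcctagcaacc
Matk, second start, GRCm38.p6 chr10:81257049-81257348, plus strand: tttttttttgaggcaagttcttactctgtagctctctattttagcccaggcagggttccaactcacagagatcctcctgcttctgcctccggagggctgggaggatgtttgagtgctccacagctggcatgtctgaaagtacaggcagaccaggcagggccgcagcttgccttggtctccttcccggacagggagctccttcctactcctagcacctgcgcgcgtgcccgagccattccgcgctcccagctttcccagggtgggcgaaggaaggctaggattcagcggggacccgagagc
GAGGAA was found once, on the strand shown, in the window of the first Matk start and not in that of the second start or in that of Dok3. On either strand, 28.3% of all 32851 promoter windows of the same table held it. Windows of Inpp5d held it 2 times, the 2 windows of Csk 1 and 3 times, and that of Ptpn6 0 times. The RUNX core TGTGGT (in 16.8% of all windows) and the C/EBP half-site pair TTGCNNAA (in 10.8%), searched on both strands, were found in none of the 7 windows.

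In mm10, per GENCODE M21, the adaptor genes lie on chromosome 6 (Dok1, 83030934 to 83033471), chromosome 14 (Dok2, 70766036 to 70778495) and chromosome 13 (Dok3, 55523231 to 55529296). The kinase genes lie on chromosome 9 (Csk, 57626646 to 57653631) and chromosome 10 (Matk, 81252935 to 81263365). The RefSeq windows shown for Dok3 and for the second Matk start lie inside these gene spans and not upstream of them. Inpp5d is found on chromosome 1 (87620312 to 87720507), and Ptpn6 on chromosome 6 (124720707 to 124738714). All 7 are protein coding. An antisense gene, Gm20531, shares 195 of the 2802 exonic bases of Ptpn6. Whether reads were counted by strand is not given in the sources used here, so reads from both genes cannot be told apart there. Dok2 overlaps Xpo7 on the opposite strand with 0 shared exonic bases, and the other 5 members overlap no annotated gene.

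The GMP libraries held 37562999 to 40170636 reads on listed genes, and the 416b libraries 54529675 (Empty vector) and 19995819 (PLZF-Flag). Zbtb16 itself had 705 and 828 normalized counts in WT and 269 and 369 in Zbtb16 lu/lu GMPs, and 382 in Empty vector and 2541 in PLZF-Flag cells. Of the 8 GMP markers, all were detected in each GMP library, led by Mpo. In 416b cells Elane was not listed and Mpo had 12.1 and 3.30 normalized counts, whereas Cd34 and Kit were abundant.

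Dok3 and Matk were both higher in Zbtb16 lu/lu than in WT GMPs, by a similar amount. Dok3 had 1503 and 1382 normalized counts (counts divided by the size factor of the library) in the WT libraries and 2439 and 2471 in the Zbtb16 lu/lu libraries. The means were 1442 ± 85.2 (SD, n = 2) and 2455 ± 23.2 (SD, n = 2), a difference of 0.77 on the log2 scale after adding 1, or 1.70-fold. Each Zbtb16 lu/lu library lay above each WT library, and the difference over the 4 possible library pairs ranged from 0.70 to 0.84. The values of Matk, the Csk-related kinase, were 1699 and 1725 in WT and 2908 and 2719 in Zbtb16 lu/lu. Its means were 1712 ± 18.4 and 2814 ± 134 (SD, n = 2 each), a log2 difference of 0.72 or 1.64-fold. The genotypes again did not overlap, with pair differences from 0.66 to 0.77. One WT and one Zbtb16 lu/lu library carry the same date in their names. Within that date the log2 difference was 0.72 for Dok3 and 0.68 for Matk, and between the other libraries it was 0.82 and 0.75. These are bulk RNA levels, in which more RNA per cell and more cells of an expressing type cannot be told apart.

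The other Dok adaptors did not move as one with Dok3. Dok1 had 1022 and 801 normalized counts in WT and 1200 and 1130 in Zbtb16 lu/lu. Its log2 difference was 0.36, the genotypes did not overlap, and the gap between the nearest libraries was 0.14. The 2 WT libraries of Dok1 were themselves wide apart, and within the shared date the difference was 0.14 against 0.58 between the other libraries. Dok2 was the scarcest member in GMPs, with 267 and 289 normalized counts in WT and 283 and 237 in Zbtb16 lu/lu, and its genotypes overlapped (log2 difference -0.10). Thus the Dok family spanned log2 differences from -0.10 to 0.77.

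Csk, the ubiquitous relative of Matk, had 4881 and 4351 normalized counts in WT and 4877 and 5001 in Zbtb16 lu/lu GMPs. The log2 difference was 0.10 with overlapping genotypes. Inpp5d (SHIP1) had 8842 and 8679 against 9131 and 9664. Its genotypes did not overlap, but the log2 difference was only 0.10 and the gap between the nearest libraries 0.05. Ptpn6 (SHP-1) had 10075 and 7501 in WT and 8749 and 9053 in Zbtb16 lu/lu, so that both Zbtb16 lu/lu libraries lay between the WT libraries (log2 difference 0.03). Csk and the 2 phosphatases thus had the differences nearest to 0, together with Dok2.

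**Figure D1:**
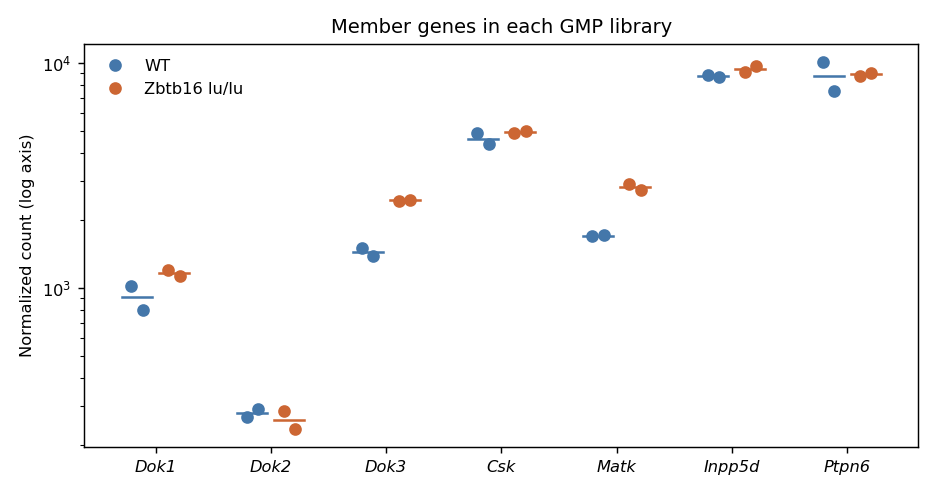
Normalized counts of the 7 members on a log axis, in each WT (blue) and Zbtb16 lu/lu (orange) GMP library. Points are libraries and bars the means of 2 libraries. Dok3 (WT 1503 and 1382, Zbtb16 lu/lu 2439 and 2471) and Matk (1699 and 1725, 2908 and 2719) stand clear of WT, and the points of Dok2, Csk and Ptpn6 overlap.

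Over the 7 members the median log2 difference was 0.10, and 6 of 7 differences were above 0, against a median of -0.01 over all 20531 genes tested. Both Zbtb16 lu/lu libraries lay above both WT libraries in 4 of 7 members, where 21.7% of all genes tested did so, and below them in 0 of 7 (22.1% of all genes). Since these values led to the selection, the counts describe the members only.

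Among the 13863 tested genes whose mean reached 100 normalized counts, ordered by their log2 difference from the highest, Dok3 stood at position 213 and Matk at position 262. Dok1 stood at 1222, Inpp5d at 4231 and Csk at 4258. Ptpn6 (5574) and Dok2 (8760) came last. The profile of Dok3 over the 4 GMP libraries, centred on its mean, was close to those of Frat1 and Trpm4 (Euclidean distances of 0.094 and 0.10 on the log2 scale, n = 4 libraries). That of Matk was closest to Dmc1, Cfp and Stard10 (0.047, 0.048 and 0.059). Cfp encodes properdin of the complement system. Dok3 was at rank 23 of the genes nearest to Matk, and Matk at rank 12 of those nearest to Dok3, out of 13862 genes. As Dok3 and Matk were chosen by their difference in these libraries, the positions and distances describe them only.

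Markers of maturing myeloid cells also differed between these libraries. For the 8 monocyte markers together, the WT libraries had 86674 and 101325 normalized counts and the Zbtb16 lu/lu libraries 124744 and 117780, without overlap of the sums. All 8 had a log2 difference above 0, and 6 were above WT without overlap, where 21.7% of all genes tested were. Irf8, a factor of monocyte fate, had 9786 and 9305 in WT and 14277 and 13887 in Zbtb16 lu/lu. For the 12 mature neutrophil markers the sums were 14675 and 6941 in WT against 21634 and 11271 in Zbtb16 lu/lu, so that the sums overlapped. All 12 differences were above 0, and 8 markers were above WT without overlap (21.7% of all genes tested). Ltf, a secondary granule protein, had 56.7 and 11.6 in WT against 846 and 305. Mmp9 was at 0 in 1 WT library, and no marker of either list was at 0 in every library.

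Between the 2 libraries of the shared date, 9 of the 12 neutrophil markers were higher in Zbtb16 lu/lu and 3 lower. The 3 were S100a8 (8098 in WT and 5199 in Zbtb16 lu/lu), S100a9 (4284 and 2953) and Lcn2 (801 and 597), which set the sums of 14675 and 11271. Of the 8 monocyte markers, 7 were higher in Zbtb16 lu/lu on that date and Klf4 was lower (697 and 689). The part of the neutrophil and monocyte markers in the differences of Dok3 and Matk was not tested. The 8 GMP markers summed to 734878 and 728036 in WT and 844897 and 834833 in Zbtb16 lu/lu. Mpo made up most of each sum (477326 and 483375 in WT, 543288 and 552003 in Zbtb16 lu/lu), 3 of the 8 were above WT without overlap (21.7% of all genes tested), and Kit had a log2 difference of -0.03. The 5 mast cell and basophil markers had sums of 9618 and 9374 in WT against 8631 and 6621 in Zbtb16 lu/lu. Of these, 0 had a difference above 0, and 2, Ms4a2 and Prss34, were below WT without overlap (22.1% of all genes tested). Their part was not tested either. Of the 6 B cell markers, 5 were under 10 normalized counts in every GMP library. Cd79b had 1103 and 1055 in WT and 1270 and 1183 in Zbtb16 lu/lu. Above WT without overlap were 3 of the 6, and 1 was below (21.7% and 22.1% of all genes tested). Of the 7 T and NK cell markers, 4 were under 10 in every library, and Nkg7 made up nearly the whole sum (11056 to 11712). Above WT without overlap were 2 of the 7 and below it 0 (21.7% and 22.1% of all genes tested). These were Cd3d (2.98 and 3.86 in WT, 12.0 and 19.5 in Zbtb16 lu/lu) and Klrb1c (1.99 and 0.964, 9.03 and 13.4), both low. Sums of the 6 megakaryocyte markers were 2018 and 4598 in WT against 2787 and 1565 in Zbtb16 lu/lu, with overlap in all 6 genes.

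**Figure D2:**
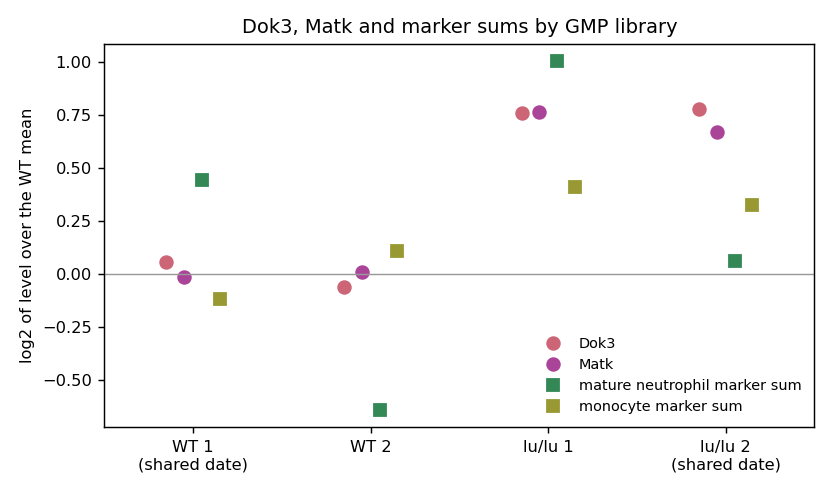
Levels of Dok3 and Matk (circles) and the summed normalized counts of the 12 mature neutrophil and 8 monocyte markers (squares) in each GMP library, as log2 of the level over the mean of the 2 WT libraries. Dok3 and Matk lie near 0 in both WT libraries and well above it in both Zbtb16 lu/lu libraries. The monocyte sums are higher in both Zbtb16 lu/lu libraries, and the neutrophil sums, led by S100a8 and S100a9, overlap (14675 and 6941 against 21634 and 11271).

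Levels were compared between genes as normalized counts per kilobase of exon. In WT GMPs the order was Ptpn6 (3136 ± 650 per kb), Csk (1235 ± 100.4), Inpp5d (1152 ± 15.2), Dok3 (587 ± 34.6), Dok1 (461 ± 79.0), Matk (373 ± 4.0) and Dok2 (95.9 ± 5.32; SD, n = 2 throughout). The lower library of Csk (1164) lay just above the higher one of Inpp5d (1163), and no neighbours in the order overlapped. Ptpn6 was at the 97.1 to 97.9 percentile of protein-coding genes detected in these libraries, and Dok2 at the 47.2 to 49.2 percentile. In Zbtb16 lu/lu GMPs Dok3 was at 998 ± 9.42 per kb and kept its place in the order. Matk, at 613 ± 29.1, and Dok1, at 589 ± 25.2, came in the opposite order, and their libraries overlapped. With the longest transcript as the length in place of all exons, Inpp5d came before Csk with overlap and Matk before Dok1 already in WT.

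In 416b cells the order was different. Csk led (3791 per kb in Empty vector and 3662 in PLZF-Flag), followed by Dok2 (2927 and 3100), Ptpn6 (2271 and 2667) and Inpp5d (951 and 982). With the longest transcript as the length, Dok2 came before Csk in PLZF-Flag cells (5012 and 4978 per kb). Dok3 (760 and 777) and Dok1 (734 and 817) were close to each other, and their order differed between the conditions. Matk was barely detected (3.16 and 9.35 per kb), at the 9.06 and 14.1 percentile of the listed protein-coding genes. The GMP and 416b tables were normalized separately and their libraries made with different kits, so levels are not compared between the tables.

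Dok2 and Matk took up different shares of their families in the GMP and in the 416b libraries. A share does not depend on the scaling of a library, but cell type and kit cannot be told apart in it. Of the summed level per kb of Dok1, Dok2 and Dok3, Dok2 made up 7.55% and 9.34% in the WT GMP libraries, 5.75% and 4.93% in Zbtb16 lu/lu, but 66.2% in Empty vector and 66.1% in PLZF-Flag 416b cells. With the longest transcript as the length, a choice added after the data were seen, the Dok2 shares were 11.5% and 14.0% in WT, 8.79% and 7.57% in Zbtb16 lu/lu and 75.6% and 75.5% in 416b cells. By exon length Dok3 made up 50.1% and 52.7% in WT GMPs and 58.5% and 60.6% in Zbtb16 lu/lu, against 17.2% and 16.5% in 416b cells. The sum of the 3 adaptors per kb was 1220 and 1067 in WT and 1696 and 1658 in Zbtb16 lu/lu. Matk made up 22.1% and 24.4% of the level of Matk and Csk together in WT and 32.7% and 30.7% in Zbtb16 lu/lu, but 0.083% and 0.255% in Empty vector and PLZF-Flag cells. In other words, Csk exceeded Matk 3.53 and 3.10 times per kb in WT and 2.06 and 2.26 times in Zbtb16 lu/lu GMPs. The ratio of Ptpn6 to Inpp5d per kb stayed between 2.34 and 3.09 in all 6 libraries.

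**Figure D3:**
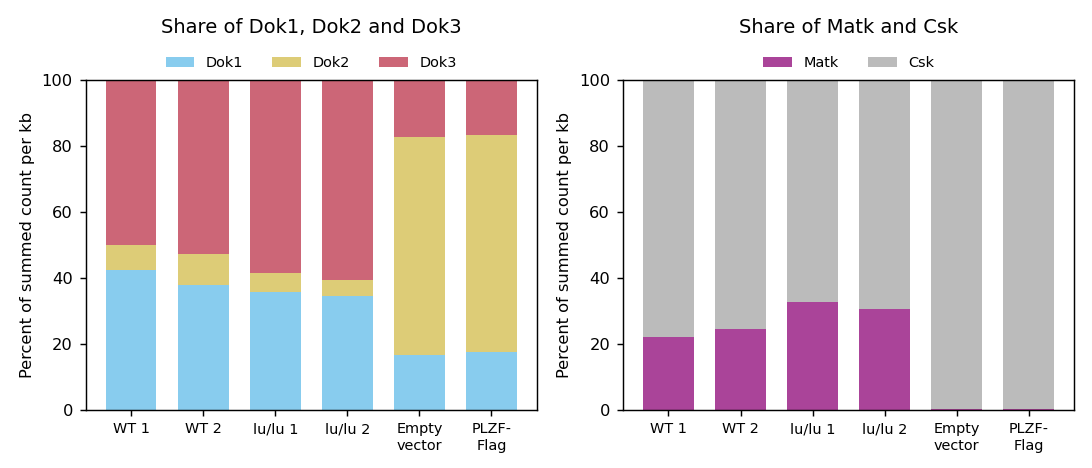
Stacked bars of the share of Dok1, Dok2 and Dok3 in their summed normalized count per kb (left) and of Matk and Csk in theirs (right), in percent, for 4 GMP and 2 416b libraries. Dok2 holds 4.93% to 9.34% in GMPs but 66.2% and 66.1% in 416b cells, and Matk holds 22.1% to 32.7% in GMPs and at most 0.255% in 416b cells. The GMP and 416b libraries were made with different kits.

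In 416b cells the ratio of PLZF-Flag to Empty vector was examined to place the members under a gain of PLZF. With 1 library per condition there is no test between conditions, and the 95% exact binomial intervals cover counting error only. Matk rested on 24 Empty vector and 26 PLZF-Flag reads, that is 14.5 and 43.0 normalized counts, a log2 ratio of 1.5 (0.68 to 2.32). It was the only member with a ratio of at least 1 in size, where 2.15% of the 13238 listed genes were past 1 upward and 2.0% past -1 downward. Of the 1031 genes with 25 to 100 reads over both libraries, a range chosen with the reads of Matk known, 3.20% were past 1 upward and 9.60% past -1 downward.

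Dok3 was read 3087 and 1156 times, or had 1868 and 1910 normalized counts. Its log2 ratio was 0.03 (-0.07 to 0.13), so that no difference was detectable at this depth. Dok1 had 1452 and 1614 normalized counts (0.15, 0.04 to 0.26) and Dok2 8494 and 8997 (0.08, 0.04 to 0.13). Ptpn6 had 6364 and 7472, the largest ratio among the abundant members (0.23, 0.18 to 0.28). The ratio of Inpp5d was 0.05 (7227 and 7462; -0.0035 to 0.096), and that of Csk -0.05 (14168 and 13684; -0.09 to -0.01). The interval lay above 0 for 4 of 7 members, Dok1, Dok2, Matk and Ptpn6, where 14.7% of all listed genes had such an interval, and below 0 for Csk alone (14.4% of all listed genes).

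Set side by side, the log2 values of Dok3 were 0.77 in Zbtb16 lu/lu GMPs and 0.03 in PLZF-Flag 416b cells, and those of Matk 0.72 and 1.5. Both comparisons had Matk above the control, although from 1712 normalized counts in WT GMPs and from 24 reads in Empty vector cells. For Ptpn6 the values were 0.03 and 0.23, and for Dok2 -0.10 and 0.08. The difference between the experiments was not tested, since 416b cells have no replicates.

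**Figure D4:**
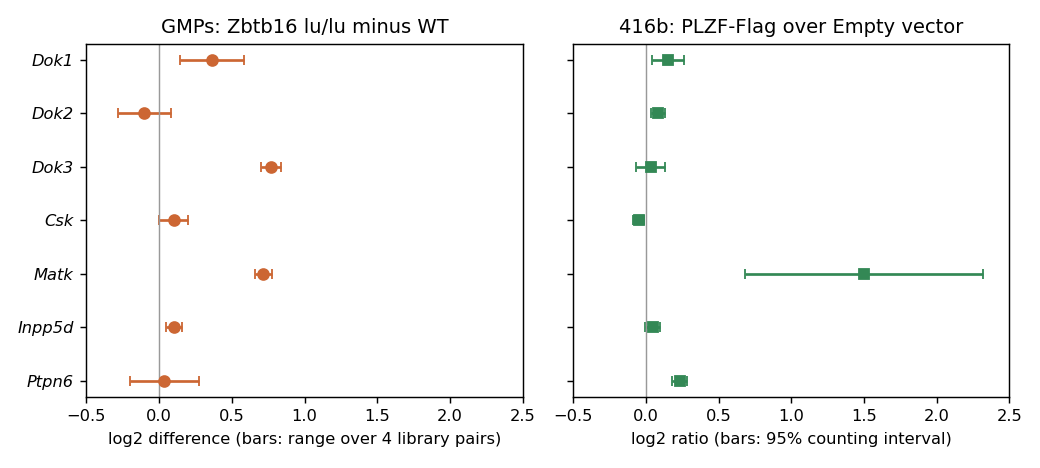
Log2 difference between Zbtb16 lu/lu and WT GMPs (left, bars from the smallest to the largest of 4 library pairs) and log2 ratio in 416b cells, PLZF-Flag over Empty vector (right, bars are 95% counting intervals) for the 7 members. Dok3 lies at 0.77 on the left and at 0.03 on the right, and the wide bar of Matk on the right (0.68 to 2.32) rests on 24 and 26 reads.

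To place the members among the genes they act with, 7 lists of 113 genes were compared between genotypes by limma with an intensity trend over all 20531 genes that reached 10 normalized counts in 2 or more libraries. At an adjusted p under 0.08, the false discovery rate used in the study, 0 of 107 tested pathway genes passed (0.0% of all genes), and 15 had an unadjusted p under 0.05, 12 higher and 3 lower. Over all genes limma called 0. The unadjusted p was under 0.05 for 1130 genes that were higher (5.5%) and 898 that were lower (4.37%). The paper reports both higher and lower genes for this comparison from its own analysis. Called by edgeR on recovered reads were 0 genes, and by DESeq2 220 (1.07%), of which 161 were higher (0.784%) and 1 was a pathway gene. With 1 library left out, limma called 4662 genes without the first and 2749 without the second WT library, of which 24 and 29 were pathway genes, and 1 and 64 genes without the first and second Zbtb16 lu/lu library, of which 0 were pathway genes. The lists are therefore given by their values.

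Receptors with an ITIM, on which SHP-1 and SHIP1 dock, had a median log2 difference of 0.29 over 19 tested genes, against -0.01 over all genes. Of the 19, 17 were above 0, and 8 were above WT without overlap and 0 below (21.7% and 22.1% of all genes). The monocyte and mature neutrophil markers differed in the same direction, with 8 of 8 and 12 of 12 above 0 and median log2 differences of 0.39 and 1.62. Their part in the differences of the ITIM receptors and of the activating genes was not tested. The sialic acid receptors Cd33 (68.6 and 122 normalized counts in WT, 156 and 127 in Zbtb16 lu/lu) and Siglecg (1044 and 1411, 1466 and 1790) had the largest differences without overlap among those with a mean of at least 100, 0.61 (standard error 0.33) and 0.42 (0.18). Their limma adjusted p-values were 0.566 and 0.497. Within the shared date Cd33 and Siglecg differed by 0.88 and 0.78, and between the other libraries by 0.34 and 0.055. Another such receptor, Siglece, overlapped between genotypes (240 and 152 in WT, 173 and 223 in Zbtb16 lu/lu).

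Genes of activating immunoreceptor signalling had a median log2 difference of 0.09 over 15 tested genes. Of these, 11 were above 0, and 7 were above WT without overlap and 2 below (46.7% and 13.3%, against 21.7% and 22.1% of all genes). Fcer1g, the γ chain shared by Fc receptors, had 1625 and 1702 in WT and 2490 and 2239 in Zbtb16 lu/lu. Its log2 difference of 0.51 (standard error 0.12) had a limma adjusted p of 0.370 and a DESeq2 adjusted p of 0.0566, which made it the 1 pathway gene called by DESeq2. Tyrobp, the DAP12 adaptor, had 4715 and 6082 against 7587 and 6801 (0.42, standard error 0.14, limma adjusted p = 0.443). Both genes lay above WT without overlap.

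Src family kinases, the substrates of Csk and Matk, had a median of -0.02 over 7 tested genes, with 3 above 0 and 1 above and 1 below WT without overlap (14.3% each, against 21.7% and 22.1% of all genes). Of the other Dok family adaptors only Dok4 was tested, with a log2 difference of -0.05. Adaptors and Ras regulators had a median of 0.01 over 20 genes, 3 above and 7 below WT without overlap (15% and 35%, against 21.7% and 22.1% of all genes). Sos1, an exchange factor of Ras, had a difference of -0.37 (limma adjusted p = 0.499) and the adaptor Nck1 of -0.35 (0.527).

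Other protein tyrosine phosphatases had a median of -0.03 over 19 genes, 1 above and 5 below WT without overlap (5.26% and 26.3%, against 21.7% and 22.1% of all genes). Ptpn12, which binds Csk, was lower in both Zbtb16 lu/lu libraries (1201 and 1109) than in WT (1600 and 1541), a log2 difference of -0.44 (standard error 0.13, limma adjusted p = 0.422). Ptpn18 was higher (1467 and 1549 in WT, 2055 and 1811 in Zbtb16 lu/lu, difference 0.36, limma adjusted p = 0.467). PI3-kinases and other phosphoinositide enzymes had a median of 0.03 over 26 genes, 5 above and 7 below WT without overlap (19.2% and 26.9%, also against 21.7% and 22.1%). Inppl1, which encodes SHIP2, the paralog of SHIP1, had 163 and 171 normalized counts in WT and 193 and 319 in Zbtb16 lu/lu (0.57, limma adjusted p = 0.531). Its difference was 0.96 within the shared date and 0.17 between the other libraries. Inpp4b, which acts on the product of SHIP1, had a difference of -0.54 (131 and 213 in WT, 104 and 125 in Zbtb16 lu/lu, limma adjusted p = 0.568), which was -0.07 within the shared date.

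**Figure D5:**
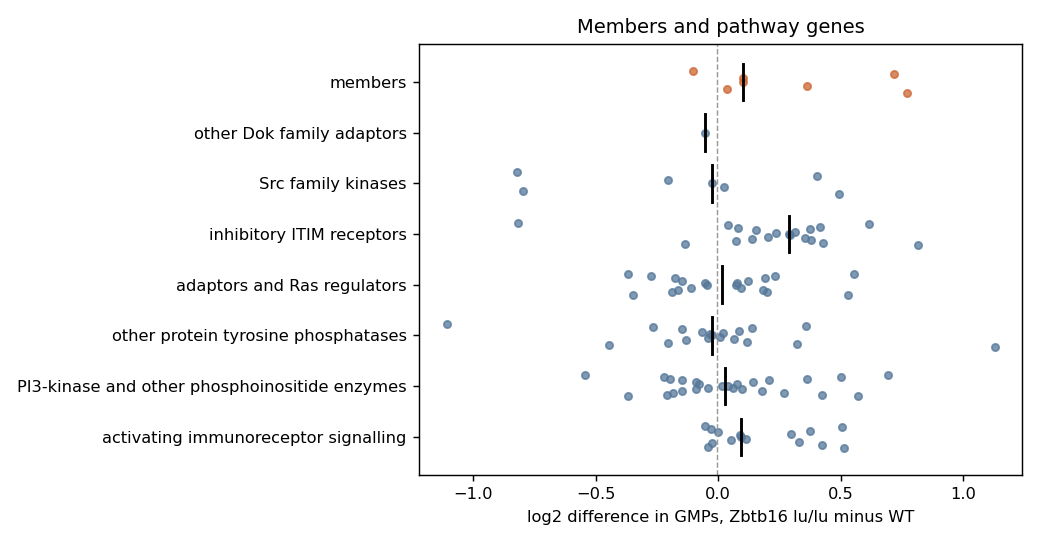
Log2 difference between Zbtb16 lu/lu and WT GMPs for the 7 members (orange) and the tested genes of 7 pathway lists (blue), 1 point per gene. Black bars are medians and the dashed line is the median of all genes tested (-0.01). Most points of the ITIM receptors lie right of the line (17 of 19 above 0, median 0.29), and the 2 rightmost member points are Dok3 and Matk.

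In 416b cells 90 of the 97 listed pathway genes had at least 100 reads, and their median log2 ratio was -0.01, against 0.0005 over all 10777 such genes. None was past 1 upward (0.065% of all such genes) and 1 past -1 downward (0.213%). This was Lair1, an ITIM receptor for collagen, with 346 and 63 reads (-1.01, -1.41 to -0.61). Lck had 106 and 66 reads (0.75, 0.30 to 1.21), and Lime1, an adaptor that anchors Csk, had 171 and 36 (-0.79, -1.34 to -0.27). In the other lists the ratios largest in size were those of Ptpn4 (-0.38), Inpp5f (-0.30), Vav3 (-0.24) and Dok4 (0.07, -0.14 to 0.27).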

How the data were processed

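RNA-seq was analysed for GMPs (2 libraries of each genotype) and 416b cells (1 library of each condition). Alignment by the authors used subread-align (v1.5.0) and mm10, with counting per gene by featureCounts (v1.5.0). The deposited signal values are these counts after scaling with size factors from DESeq2, here called normalized counts. GMP libraries were made with a TruSeq Stranded Total RNA kit with ribosomal depletion and 416b libraries with SMART-Seq v3. The deposited tables also hold group means, log2 values, fold changes and p-values of the authors, which were not used.

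Values were divided by the value of 1 read in their library. In GMPs 100% came out whole within 0.1 of a read and in 416b cells 84.8% and 85.5%, and the others were rounded to whole reads. The value of 1 read was 0.994 and 0.964 in WT and 1.00 and 1.03 in Zbtb16 lu/lu. GEO gives 1 sample per genotype. Its 2 columns were used as 2 libraries, since counts differed beyond sampling noise (chi-square per degree of freedom 43.8 in WT and 11.1 in Zbtb16 lu/lu). The methods mention more RNA extractions than the columns used here, and nothing says how many animals a column stands for, so p-values measure the spread between these libraries, which may be technical.

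GMPs were compared on log2(value + 1) by limma with an intensity trend, for genes reaching a value of 10 in 2 or more libraries, with Benjamini-Hochberg adjustment over all of them and a threshold of 0.08. The alternatives were edgeR and DESeq2 on recovered reads, pseudocounts of 0.1 and 10, 2 other scalings, 2 other filters, no trend, a threshold of 0.05, the shared date alone and omission of each library in turn. Scripts were tested on simulated data. Ratios in 416b cells used a pseudocount of 1. Lengths and positions came from GENCODE M21. The members and gene lists were chosen with earlier results of these data known. Genes named beside the members were, in each list, the 2 with the largest GMP difference without overlap at a mean of at least 100 and the 1 with the largest 416b ratio at 100 or more reads, with Dok3 and Matk also given their 3 nearest genes. Some genes that this rule names are not reported here. Irf8, Klf4, Ltf, Mmp9, S100a8, S100a9, Lcn2, Mpo, Kit, Ms4a2, Prss34, Cd79b, Nkg7, Cd3d and Klrb1c were picked from the marker lists, and Siglece from the receptors, after their values were seen. Tests ran under R 4.3.3 with limma 3.58.1, with edgeR 4.0.16 and with DESeq2 1.42.0. Tables were made in Python 3.11.15 using pandas 2.3.3, with scipy 1.17.1 for intervals and numpy 2.4.6.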

Additional observations from a re-analysis of the deposited data

How the results depend on the processing

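The log2 differences of Dok3 and Matk in GMPs kept their direction under all 9 alternatives, from 0.71 to 0.83 and from 0.67 to 0.76. Those of Csk, Inpp5d and Dok1 kept theirs too, with Dok1 at 0.14 within the shared date. For Dok3, Matk, Inpp5d and Dok1 each Zbtb16 lu/lu library lay above each WT library. Leaving out a library or taking the shared date alone could therefore not change their direction. Dok2 (-0.23 to 0.02) changed sign under 1 alternative and Ptpn6 (-0.18 to 0.25) under 2. In 416b cells all 28 alternative ratios stayed inside the counting interval, and that of Matk was 1.11 with a pseudocount of 10. With the longest transcript as length, 5 of 7 percentiles in WT GMPs moved by more than 1 SD. So did 9 of 12 mean shares and ratios between family members in GMPs, an alternative chosen after seeing the data.

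The number of genes past the threshold, 0 by limma, was 220 by the DESeq2 Wald test on recovered reads, and 1 of them was a pathway gene. It was 0 by edgeR, with 2033 genes at an unadjusted p under 0.05. Leaving out 1 library leaves 1 in its genotype, which is then assumed to vary like the other. This gave from 1 to 4662 genes over all and from 0 to 29 pathway genes. Without the first WT library the counts were 4662 and 24, without the second 2749 and 29. They were 1 and 0 without the first Zbtb16 lu/lu library and 64 and 0 without the second. With a WT library left out, the spread rests on the Zbtb16 lu/lu pair, whose counts differed less than those of the WT pair. The cause of the DESeq2 count was not tested. No paired analysis was possible because the column names hold dates but no replicate numbers, only 1 date holds both genotypes, and a term for date would leave no residual degrees of freedom.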
